A study of Mus musculus with 8 samples.

Results

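Cardiomyocytes at day 10 (CM) were set against the mouse embryonic stem cells they were derived from (ESC, day 0), gene by gene, to see which transcripts ended far from their starting level and which were back at it. All 13540 genes of the expression table entered the comparison, so 13540 of 13540 are described, and 4 of the 8 sequenced libraries belong to its 2 stages. Mesoderm (MES, day 4) and cardiac precursors (CP, day 5.3) were read only to follow the route between both ends. All stages came from cells of the 129/Ola strain. The culture text is the same for every sample: floating aggregates (embryoid bodies) in serum-free medium, reaggregation with VEGF, Activin A and BMP4, then plating with VEGF, basic FGF and FGF10. It does not say which of these an ESC sample had met. CM are a whole day 10 culture, and no sort for heart muscle cells is stated.

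Poly(A) RNA was sequenced from TRIzol extracts on an Illumina GAIIx, and expression is given as RPKM, the read number per kilobase of a gene, scaled to depth. Each stage was sequenced as 2 libraries, which the submitters call biological duplicates, but the table holds 1 value per stage. No difference below could therefore be checked against replicates, and none carries an SD or a test. Depth estimated from the steps between low values was 88.5 M reads in CM and 75.3 M reads in ESC (1 M is 1000000). At that depth 1 RPKM on a 2 kb gene model rests on 177 reads in CM and 151 reads in ESC. The 95% Poisson interval of such a value spans 85.8% to 116% of it in CM and 84.7% to 117% in ESC, and 3 reads correspond to 0.0169 RPKM in CM and 0.0199 RPKM in ESC. These limits cover counting error only.

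Embryonic stem cells hold a pluripotent state through a small circuit of transcription factors led by OCT4 (the product of Pou5f1), SOX2 and NANOG, and they divide fast on glycolysis and one-carbon metabolism. Heart muscle cells form through mesoderm and are made by GATA, NKX2-5, TBX, HAND and MEF2 factors. They carry sarcomeres, in which myosin thick filaments pull on actin thin filaments under the control of troponin, and they release and recapture calcium at every beat. They divide little and burn fatty acids and lactate in many mitochondria.

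Differences are CM minus ESC on the log2(RPKM + 1) scale throughout, which understates the change of genes with low values. A gene is called higher or lower in CM at a difference of at least 1, a 2-fold change on this scale. By that rule 3004 genes were higher in CM (22.2% of all genes) and 3173 were lower (23.4%), and 7363 (54.4%) lay within 2-fold. The median difference of all genes was -0.03, with the 5th percentile at -2.41 and the 95th at 2.57. The 5 genes just inside the higher limit lay at 1.0000 to 1.0004 and the 5 just outside at 0.9975 to 0.9999. On the lower side the values were -1.0015 to -1.0002 inside and -0.9999 to -0.9988 outside. At 4-fold 1182 genes were higher (8.73%) and 1050 lower (7.75%). Much rarer were 32-fold differences, with 93 genes higher (0.687%) and 58 lower (0.428%). A further reading of the same 2 columns is that 258 genes (1.91%) stood at 10 RPKM or more in CM and under 1 RPKM in ESC, while 192 genes (1.42%) showed the opposite. At least 1 RPKM was reached by 85.4% of genes in CM and 84.3% in ESC. Every listed gene reaches 1 RPKM in some stage, so these are not shares of all mouse genes.

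**Figure D1:**
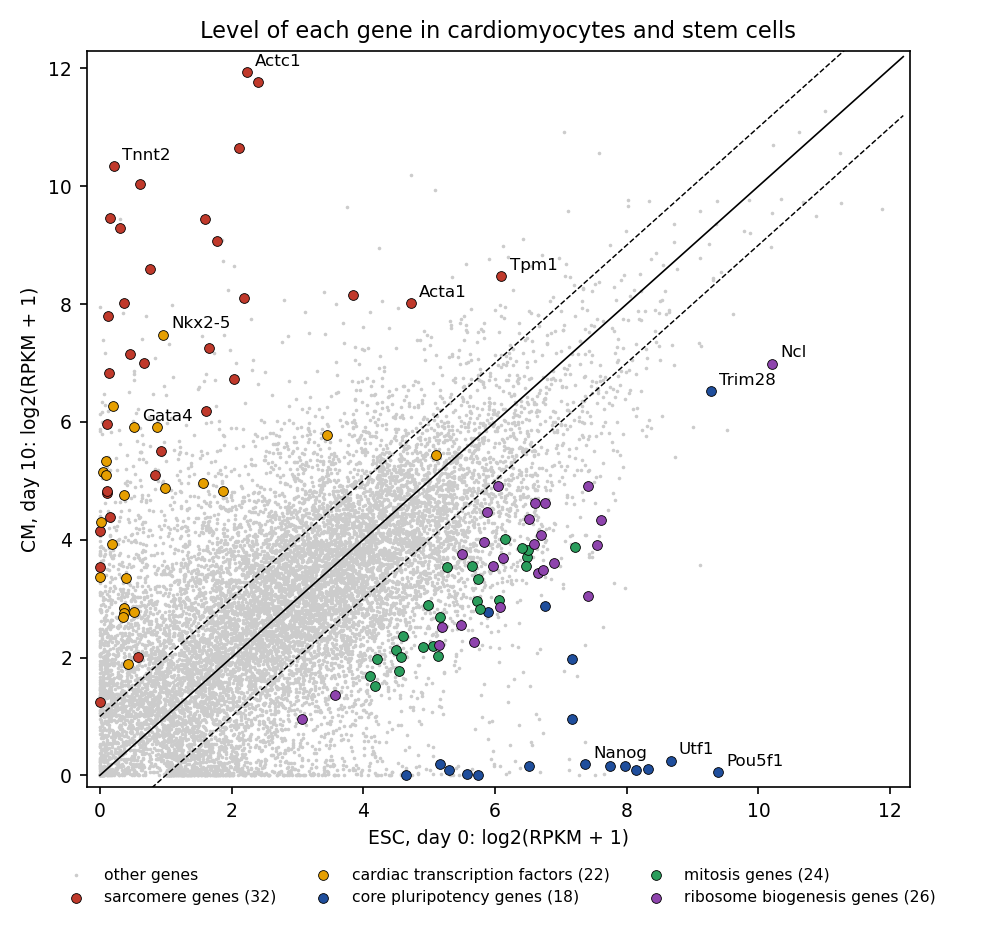
Level of each of the 13540 genes in CM (vertical axis) and ESC (horizontal axis), both as log2(RPKM + 1). The solid line marks equal levels and the dashed lines a 2-fold difference; coloured points are members of 5 gene lists, with sarcomere genes at the upper left and core pluripotency genes at the lower right.

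The extremes of the distribution were heart muscle structure on one side and pluripotency on the other. Tnnt2, which encodes cardiac troponin T, showed the largest difference of all genes, with 1293 RPKM in CM and 0.155 RPKM in ESC (difference 10.13). Pou5f1 was at the other end, with 0.0429 RPKM in CM and 670.0 RPKM in ESC (-9.33). A difference of at least 7 was seen in 19 genes on the CM side and 12 on the ESC side. The 12 genes with the largest differences on the CM side were Tnnt2, Actc1, Myh7, Myl7, Myl3, Nppa, Tnni1, Myh6, Hspb7, Tnnc1, Mybpc3 and Csrp3. Of these, 10 encode sarcomere proteins. Hspb7, a small heat shock protein of heart muscle, had 247 RPKM in CM and was listed at 0 in ESC. The count of 12 on the ESC side includes 1 gene named only by a model number, which is left out of the list that follows, and Cdh1, the last gene in it, stands at -6.84. The 12 largest with a gene name on the ESC side were Pou5f1, Utf1, Dppa5a, L1td1, Trh, Zfp42, Tdh, Sox2, Rpl10l, Nanog, Fbxo15 and Cdh1. In the table Tnnt2 is ENSMUSG00000026414, Actc1 ENSMUSG00000068614, Nppa ENSMUSG00000041616, Pou5f1 ENSMUSG00000024406 and Cdh1 ENSMUSG00000000303.

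All 32 genes of the sarcomere list were higher in CM, against 22.2% of all genes, with a median difference of 5.88. Actc1, cardiac alpha-actin of the thin filament, was the most abundant transcript of CM at 3917 RPKM in CM and 3.68 RPKM in ESC (9.71). Myl7, the atrial regulatory myosin light chain, followed at 3502 RPKM in CM and 4.27 RPKM in ESC (9.38). Both were thus among the scarce transcripts of ESC and led the table in CM. The myosin heavy chains Myh6 and Myh7, which set the speed of contraction, were both high. Myh6 had 1614 RPKM in CM and 3.33 RPKM in ESC, and Myh7 had 1053 RPKM in CM and 0.534 RPKM in ESC. Of the 32-base words in their longest transcripts, 31.8% (Myh6) and 37.9% (Myh7) also occur in other genes, so reads may have been split between relatives. Tnni1, the slow skeletal troponin I that the embryonic heart uses, had 629 RPKM in CM and 0.239 RPKM in ESC. Tnni3, the troponin I of the adult heart, had 152 RPKM in CM and 2.15 RPKM in ESC, so the embryonic form was the more abundant per length. The smallest differences of the list belonged to the M-band gene Myom2 (1.43) and the Z-disc gene Myoz2 (1.24), both below 4 RPKM in CM. Tnni3, Myom2 and Myoz2 lie outside the rule for named genes and were chosen after their values were seen.

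Promoter sequence was looked up for these genes because the transcription factor SRF, which binds the CArG box, and the MEF2 factors are textbook regulators of muscle genes. RefSeq's promoter table (build GRCm38.p6) holds an entry for 10412 of the 13540 genes (76.9%), and the 250 bases before the start site were searched on both strands. A CArG box lay in 7 of the 26 sarcomere genes with an entry (26.9%), against 1.62% of all 27025 genes of the promoter table. An exact MEF2 site lay in 4 of 26 (15.4%), against 0.592%. A match is a description of these letters and shows no binding. Srf itself lay within 2-fold, at 42.6 RPKM in CM and 33.4 RPKM in ESC. The 5 stretches below, from genes at 386 RPKM or more in CM, were picked because they hold the motif, which is in capitals (a CArG box in the first 4, a MEF2 site in Mybpc3). Myl9 is from the smooth muscle list and the others are from the sarcomere list. They are written 5′ to 3′ on the strand of the gene: Actc1 chr2:114052876-114052975 (minus), Myl7 chr11:5898789-5898888 (minus), Myl3 chr9:110763548-110763647 (plus), Myl9 chr2:156775258-156775357 (plus) and Mybpc3 chr2:91118009-91118108 (plus).
Actc1: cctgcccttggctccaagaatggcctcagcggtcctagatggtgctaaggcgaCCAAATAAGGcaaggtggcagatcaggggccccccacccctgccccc
Myl7: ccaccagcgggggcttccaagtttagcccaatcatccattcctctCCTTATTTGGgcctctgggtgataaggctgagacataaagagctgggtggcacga
Myl3: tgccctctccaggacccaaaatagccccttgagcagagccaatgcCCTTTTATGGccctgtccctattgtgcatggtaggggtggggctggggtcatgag
Myl9: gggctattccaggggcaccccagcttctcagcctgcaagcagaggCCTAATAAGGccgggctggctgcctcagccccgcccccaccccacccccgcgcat
Mybpc3: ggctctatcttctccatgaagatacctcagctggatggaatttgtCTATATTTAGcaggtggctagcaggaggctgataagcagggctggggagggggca
Myl3, the ventricular essential light chain, had 702 RPKM in CM and 0.112 RPKM in ESC. Mybpc3, the myosin-binding protein C of heart, had 386 RPKM in CM and 0.698 RPKM in ESC. Myl9, a regulatory light chain of smooth and non-muscle myosin, had 975 RPKM in CM and 32.9 RPKM in ESC. All 3 were high in CM, and Myl9 alone of them was also well above 10 RPKM in ESC.

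The regulators of the cardiac programme were lower in abundance than the structural genes but nearly as uniform. Of 22 cardiac transcription factors, 21 were higher in CM, against 22.2% of all genes, and the other was Srf. The median difference was 3.57. Nkx2-5, a homeobox factor of the heart field, had 178 RPKM in CM and 0.941 RPKM in ESC (6.52). Gata6, a zinc finger factor of mesoderm and endoderm, had 75.9 RPKM in CM and 0.152 RPKM in ESC (6.06). Gata4 had 59.3 RPKM in CM and 0.428 RPKM in ESC (5.40), and Hand2, a basic helix-loop-helix factor, had 39.5 RPKM in CM and 0.0653 RPKM in ESC (5.25). All 4 were thus below 1 RPKM in ESC and above 39 RPKM in CM. Hand1, its relative of the left ventricle and extraembryonic mesoderm, had 30.1 RPKM in CM and 1.98 RPKM in ESC (3.39), far below its level in MES (172 RPKM). In 8 of the 22 factors MES or CP exceeded CM by the 2-fold rule, so their CM level is a partial return.

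Hormones and secreted products of heart muscle showed some of the largest differences, and they appeared late. Of 6 such genes 5 were higher in CM, with a median of 5.31. Nppa, which encodes the atrial natriuretic peptide, had 693 RPKM in CM and 0.239 RPKM in ESC, and it was still at 0.232 RPKM in CP. Nppb, the B-type natriuretic peptide, had 57.2 RPKM in CM and 0.425 RPKM in ESC. Igfbp7, a secreted binding protein for insulin-like growth factors, had 269 RPKM in CM and 5.98 RPKM in ESC. These 3 genes were below 0.3 RPKM in CP. Ankrd1, a stretch-responsive muscle protein placed on this list, had 544 RPKM in CM and 2.61 RPKM in ESC. Ptgds, a prostaglandin synthase, was the exception, with 0.0480 RPKM in CM and 0.298 RPKM in ESC. Nppa shares 56.6% of its 32-base words with other transcripts, so its level is uncertain.

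Excitation genes were mostly higher in CM. Of 25 genes for calcium handling and ion channels, 20 were higher in CM, against 22.2% of all genes. Another 2 were lower and 3 lay within 2-fold, with a median of 3.31. Slc8a1, the sodium-calcium exchanger, had 79.6 RPKM in CM and 0.0185 RPKM in ESC (6.31). Hrc, a calcium-binding protein of the sarcoplasmic reticulum, had 104 RPKM in CM and 0.430 RPKM in ESC. Jph2, which ties that reticulum to the surface membrane, had 174 RPKM in CM and 1.92 RPKM in ESC. All 3 were scarce in ESC. Pln, the inhibitor of the calcium pump, had 63.0 RPKM in CM and 0.0229 RPKM in ESC, with 62.0% of its words shared with other transcripts. Its target Atp2a2, the calcium pump of the reticulum, was already present in ESC, at 446 RPKM in CM and 72.3 RPKM in ESC (2.61). The 2 lower genes were Gja1, the gap junction protein connexin 43, and the potassium channel gene Kcnj3. Gja1 had 22.1 RPKM in CM and 53.2 RPKM in ESC, and Kcnj3 had 0.281 RPKM in CM and 1.87 RPKM in ESC. Gjc1, connexin 45, lay within 2-fold at 11.8 RPKM in CM and 12.4 RPKM in ESC, as did the calcium channel gene Cacna1g at 0.646 RPKM in CM and 0.539 RPKM in ESC. Gja1 and Kcnj3 are named because they are the only lower genes of the list, and were chosen after their values were seen.

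Of the markers of other cell types that a day 10 culture could hold, the endothelial ones were mostly higher in CM. So were the smooth muscle and matrix genes described further below, while the other lists given here leaned less to that side. In bulk RNA, more cells of a type and more RNA per cell cannot be told apart. Endothelial markers were higher in 11 of 14 genes, against 22.2% of all genes, with a summed level of 187 RPKM in CM and 35.5 RPKM in ESC. Cdh5, the adhesion protein of vessel walls, had 35.5 RPKM in CM and 0.115 RPKM in ESC, and the receptor kinase gene Tie1 had 18.8 RPKM in CM and 0.362 RPKM in ESC. Emcn was the only marker of that list at 0, in ESC. Blood markers were higher in 4 of 12 and within 2-fold in 8, with a median of 0.42 and a summed level of 14.4 RPKM in CM and 3.49 RPKM in ESC. The embryonic globins Hba-x and Hbb-bh1 were at 2.49 RPKM and 2.32 RPKM in CM, and both were listed at 0 in ESC. Epicardial markers were higher in 3 of 7 and lower in 1, with a median of 0.16 and a summed level of 186 RPKM in CM and 34.4 RPKM in ESC, nearly all of it the keratin gene Krt19 (176 RPKM in CM and 30.3 RPKM in ESC). Endoderm markers were higher in 2 of 10 and lower in 2, neural markers higher in 1 of 7 and lower in 3, and trophoblast markers higher in 1 of 9 and lower in 4. The part of such cells in the other differences was not tested.

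Smooth muscle and matrix genes formed the other large block on the CM side. Of 10 smooth muscle markers 8 were higher in CM, with a summed level of 3738 RPKM in CM and 341.5 RPKM in ESC. Acta2, smooth muscle actin, which early heart muscle cells also use, had 1944 RPKM in CM and 131 RPKM in ESC (3.88). Des, the intermediate filament desmin of all muscle types, had 273 RPKM in CM and 3.56 RPKM in ESC (5.91), and Cnn1, the actin-binding calponin, had 73.4 RPKM in CM and 7.38 RPKM in ESC. Smtn and Cald1, at differences of 0.82 and 0.74, stayed within 2-fold. Collagens and other matrix genes were higher in 16 of 19, with a median of 3.22. Col3a1, a fibrillar collagen, had 62.5 RPKM in CM and 1.02 RPKM in ESC, and Bgn, the proteoglycan biglycan, had 60.9 RPKM in CM and 1.47 RPKM in ESC. The basement membrane collagen gene Col4a2 had 182 RPKM in CM and 8.06 RPKM in ESC. All 3 were thus under 10 RPKM in ESC and above 60 RPKM in CM. Fn1, fibronectin, was abundant at both ends, with 243 RPKM in CM and 159 RPKM in ESC.

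Fuel use genes leaned to the CM side. None was lower in the fatty acid oxidation, glycolysis, TCA cycle or respiratory chain lists, against 23.4% of all genes. Fatty acid oxidation and uptake genes were higher in 11 of 22 and lower in none, with a median of 1.02. Lpl, which frees fatty acids from circulating lipids, had 38.7 RPKM in CM and 1.61 RPKM in ESC. Cd36, a fatty acid receptor, had 12.5 RPKM in CM and was listed at 0 in ESC. Pdk4, the kinase that shuts off pyruvate oxidation, had 24.4 RPKM in CM and 1.47 RPKM in ESC. These uptake and control genes stood apart from the core components Acads (35.0 RPKM in CM and 17.9 RPKM in ESC) and Etfb (79.7 RPKM in CM and 59.1 RPKM in ESC), which lay within 2-fold. Glycolysis genes were higher in 12 of 21 and lower in none, with a median of 1.41. TCA cycle genes were higher in 5 of 20, near the 22.2% of all genes, and lower in none, with a median of 0.68. The largest difference was that of Idh2, the mitochondrial isocitrate dehydrogenase, at 167 RPKM in CM and 27.2 RPKM in ESC (2.58). Genes for the respiratory chain and ATP synthase were higher in 20 of 78, close to the 22.2% of all genes, and lower in none, with a median of 0.59. The 7 mitochondrially encoded genes all lay within 2-fold, with a median of 0.01, whose sign changes with the scaling.

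Within these pathways, 23 pairs of related genes were compared in which the first is the muscle or heart form (in a few, another differentiated form, such as Aldoc, the brain form of aldolase). RPKM is per length, so the levels of 2 genes of a pair may be set side by side. The share of the first form in the summed RPKM of the pair was higher in CM in 22 of 23 pairs. It exceeded 50% in 14 pairs in CM and 3 in ESC, and 11 pairs passed 50% between both ends. Cox6a2, the heart form of cytochrome oxidase subunit 6A, made up 53.6% of its pair in CM and 0.212% in ESC. It had 229 RPKM in CM and 0.278 RPKM in ESC, while the general form Cox6a1 had 198 RPKM in CM and 131 RPKM in ESC. The heart form was thus added to a general form that lay within 2-fold. Pgam2, muscle phosphoglycerate mutase, made up 95.7% of its pair in CM and 13.1% in ESC. It had 299.6 RPKM in CM and 2.84 RPKM in ESC, against 13.5 RPKM in CM and 18.9 RPKM in ESC for Pgam1. Eno3, muscle enolase, made up 85.9% in CM and 24.3% in ESC. Slc25a4, the muscle carrier that swaps ADP for ATP across the inner mitochondrial membrane, made up 87.2% in CM and 40.3% in ESC.

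Other pairs changed through loss of the general form as well. Actc1 made up 84.5% of actin in its pair in CM and 0.196% in ESC, while Actb, cytoplasmic beta-actin, had 717 RPKM in CM and 1873 RPKM in ESC. The cadherin pair turned over almost wholly: Cdh2, N-cadherin, had 62.1 RPKM in CM and 2.05 RPKM in ESC, and Cdh1, E-cadherin, had 0.217 RPKM in CM and 138 RPKM in ESC. Lmna, the lamin of differentiated nuclei, had 38.7 RPKM in CM and 10.8 RPKM in ESC, while Lmnb1 had 31.9 RPKM in CM and 236 RPKM in ESC. Smarcd3, the heart and muscle subunit of the BAF chromatin remodelling complex, had 18.1 RPKM in CM and 1.25 RPKM in ESC, and its relative Smarcd1 had 16.0 RPKM in CM and 69.9 RPKM in ESC. In these pairs the first form was the scarce one in ESC and the major one in CM. Lactate dehydrogenase was the exception. Ldhb, the heart form, made up 12.5% in CM and 21.8% in ESC, and its relative Ldha had 513 RPKM in CM and 213 RPKM in ESC. Slc2a4, the insulin-responsive glucose transporter, reached only 5.17% of its pair in CM, against 0.126% in ESC. Cpt1b, Slc25a5, Eno1, Smarcd3, Etfb and Eef1a1 share over 50% of their 32-base words with other transcripts, and shares that use them are uncertain. Pgam1 (42.1%) and Ldhb (40.5%) share less, and Ldha, Actb and Aldoa each share more than the 31.8% of Myh6. Reads of these genes may also have been split between relatives, so the shares of their pairs are uncertain too.

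**Figure D2:**
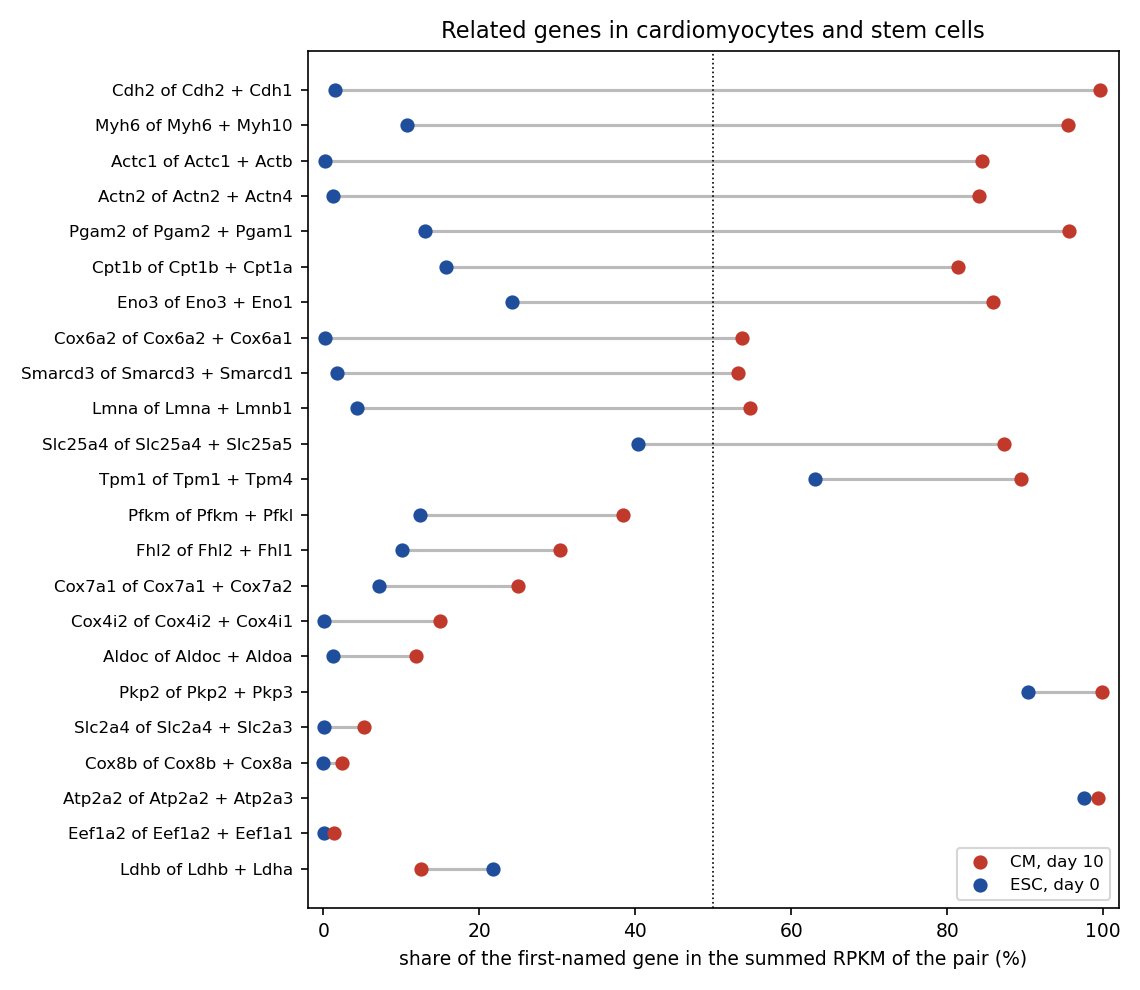
Share of the first-named gene in the summed RPKM of each of 23 pairs of related genes, in percent, in CM (red) and ESC (blue); the dotted line marks 50%. In 22 pairs the CM point lies to the right of the ESC point, and in lactate dehydrogenase (Ldhb) to the left.

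Further lists leaned to the CM side. Lysosome genes were higher in 12 of 25, against 22.2% of all genes, and lower in none, with a median of 0.90. Ctsa, a protective protein of lysosomal enzymes, had 125 RPKM in CM and 14.3 RPKM in ESC, and Gaa, the acid glucosidase that digests glycogen, had 89.2 RPKM in CM and 10.95 RPKM in ESC. The membrane protein Lamp1 did not differ by 2-fold, with 153 RPKM in CM and 139 RPKM in ESC. Imprinted genes were higher in 13 of 18 and lower in 2, against 22.2% and 23.4% of all genes, with a median of 1.95. H19, a non-coding RNA, had 215 RPKM in CM and 3.89 RPKM in ESC (5.46), and its neighbour Igf2, a fetal growth factor, had 1165 RPKM in CM and 25.5 RPKM in ESC (5.46), though 76.0% of its words are shared with other transcripts. Igf2r, the receptor that clears this growth factor, had 497 RPKM in CM and 17.97 RPKM in ESC. Dlk1, a membrane protein related to Notch ligands, had 148 RPKM in CM and 2.92 RPKM in ESC. The immediate early genes Fos and Jun, which also respond to handling of cells, were higher as well. Fos had 176 RPKM in CM and 2.68 RPKM in ESC, and Jun had 176 RPKM in CM and 6.25 RPKM in ESC. Of the 11 genes of that stress list 8 were higher in CM and 1 was lower, and its part in other differences was not tested.

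**Figure D3:**
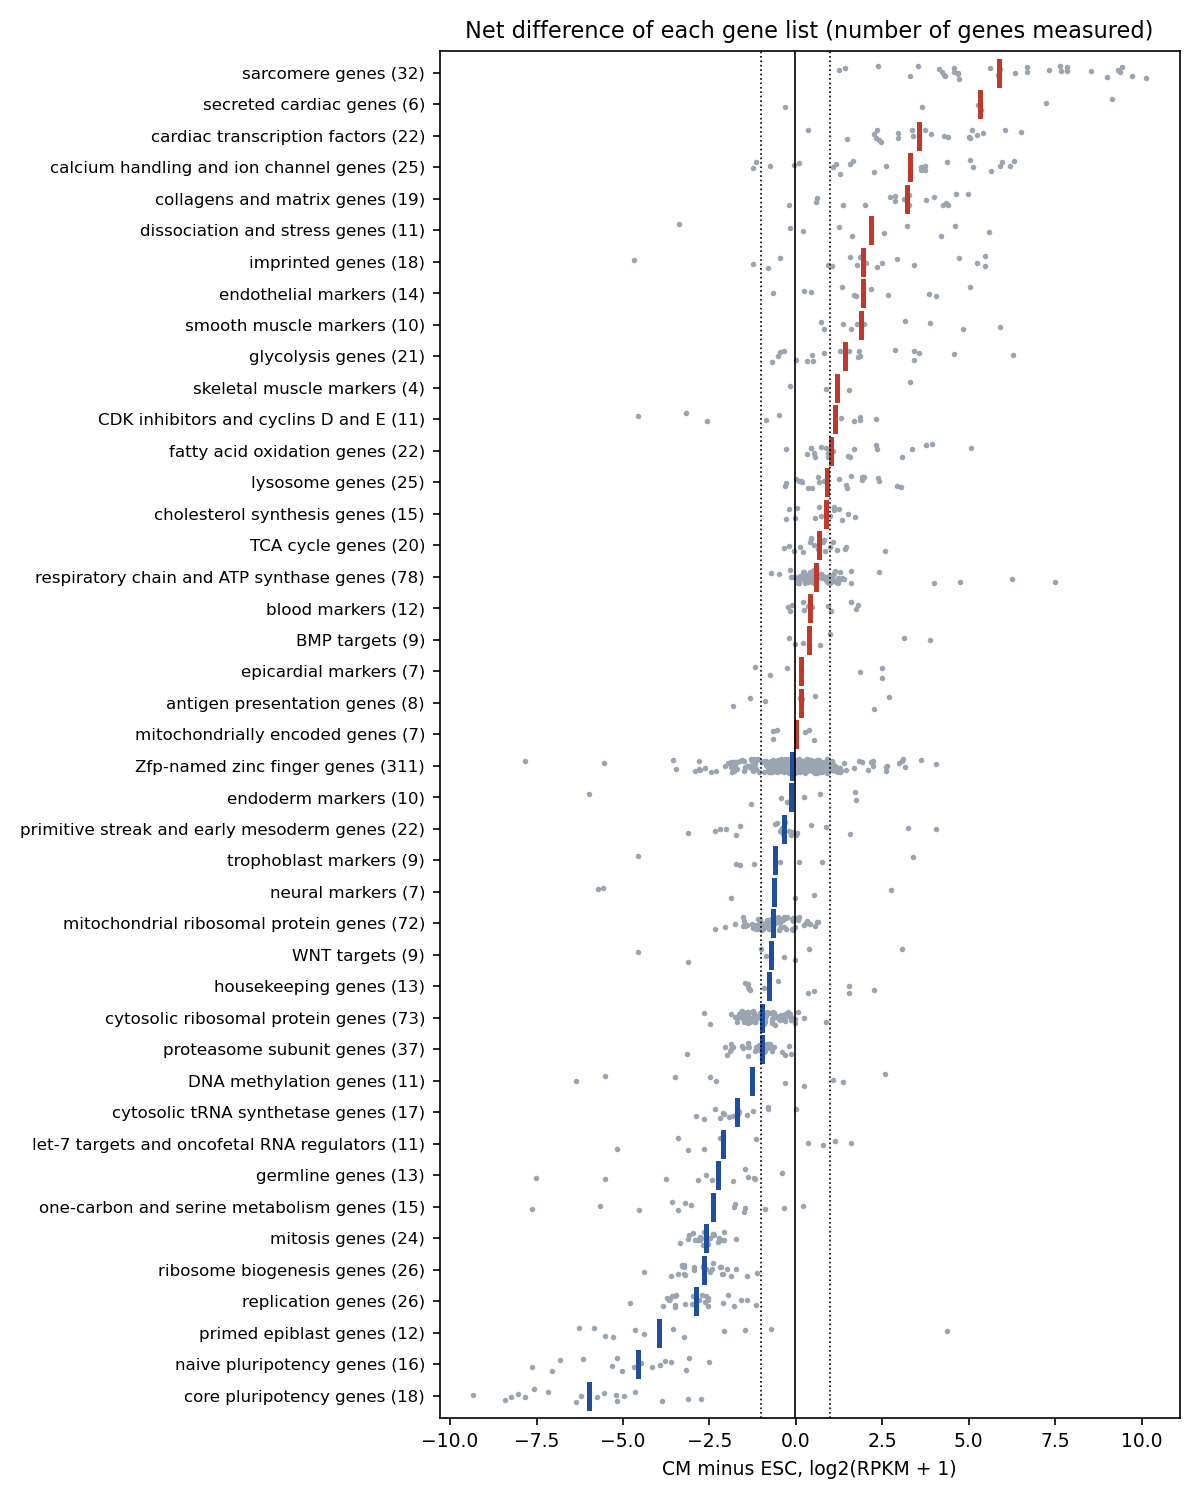
Difference of each gene (CM minus ESC, log2(RPKM + 1), horizontal axis) in 43 gene lists ordered by their median (coloured bar); grey points are genes, the number measured stands beside each name, and dotted lines mark a 2-fold difference. Of the medians, 13 are at 1 or more and 11 at -1 or less, with sarcomere genes at 5.88 and core pluripotency genes at -5.98.

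On the ESC side the pluripotency genes were lost almost completely. All 18 core pluripotency genes were lower in CM, against 23.4% of all genes, with a median difference of -5.98, and 14 of them were under 1 RPKM in CM. Sox2, the partner of OCT4, had 0.120 RPKM in CM and 213 RPKM in ESC (-7.58), and Nanog had 0.146 RPKM in CM and 164 RPKM in ESC (-7.17). Utf1, a chromatin factor of pluripotent cells, had 0.190 RPKM in CM and 405 RPKM in ESC (-8.41). These were among the abundant transcripts of ESC and were below 0.2 RPKM in CM. Exceptions at 1 RPKM or more in CM included Trim28, a general co-repressor, at 90.9 RPKM in CM and 619.8 RPKM in ESC (-2.76). Trim71 had 5.82 RPKM in CM and 58.6 RPKM in ESC (-3.13). Lin28a, the RNA-binding protein that blocks let-7, had 2.94 RPKM in CM and 143 RPKM in ESC (-5.19). Trim28 is named after its value was seen, as the smallest difference of the list. All 16 naive pluripotency genes were lower, with a median of -4.57. Tdh, a threonine-catabolising enzyme on which mouse ESC depend, had 0.0158 RPKM in CM and 199.7 RPKM in ESC. Primed epiblast genes were lower in 10 of 12, and the 1 higher gene was Cdh2, described above.

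The octamer core ATGCAAA, bound by OCT4, was searched in the same 250 bases on both strands, where TTTGCAT is its reverse complement. It occurs in 4.65% of all 27025 genes of the promoter table. Only 12 of the 18 core pluripotency genes have an entry, under 80% of the list, so no share of the list is given. Among those with an entry, the octamer core lay only in Nanog, Sox2 and Zfp42. Nanog, Sox2 and Zfp42 are shown because they hold it (capitals, 5′ to 3′ on the gene's strand, GRCm38.p6): Nanog chr6:122707369-122707468 (plus), Sox2 chr3:34649851-34649950 (plus) and Zfp42 chr8:43307140-43307239 (minus).
Nanog: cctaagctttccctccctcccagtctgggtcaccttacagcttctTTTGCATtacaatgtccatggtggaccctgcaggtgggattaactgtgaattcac
Sox2: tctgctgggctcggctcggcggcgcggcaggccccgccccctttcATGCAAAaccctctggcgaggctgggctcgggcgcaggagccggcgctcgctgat
Zfp42: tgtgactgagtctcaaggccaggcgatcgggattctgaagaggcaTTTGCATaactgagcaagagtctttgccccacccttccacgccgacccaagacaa
Zfp42, a zinc finger factor of the inner cell mass, had 0.111 RPKM in CM and 251 RPKM in ESC (-7.83), so all 3 genes were at least 164 RPKM in ESC and below 0.2 RPKM in CM.

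Genes of the germ line were lower in 12 of 13, against 23.4% of all genes, with a median of -2.26. All 13 were under 1 RPKM in CM and none was in ESC. Only genes that reach 1 RPKM in some stage were measured, which holds for 13 of the 16 listed. A germ line gene silent in CM could thus enter only through another stage, and the count is partly set by that filter. Tex19.1, a germ-cell protein that restrains transposons, was listed at 0 in CM and had 44.7 RPKM in ESC. Tdrd12, a protein of the piRNA pathway, had 0.0721 RPKM in CM and 13.4 RPKM in ESC. Genes of DNA methylation were lower in 6 of 11, against 23.4% of all genes. They were higher in 3, near the 22.2% of all genes. Dnmt3b, a methyltransferase that sets new marks, had 0.807 RPKM in CM and 81.4 RPKM in ESC (-5.51), and its cofactor Dnmt3l had 0.116 RPKM in CM and 90.5 RPKM in ESC (-6.36). Dnmt3a, the other such enzyme, lay within 2-fold, with 25.9 RPKM in CM and 21.8 RPKM in ESC. Tet3, which oxidises methylcytosine, had 15.9 RPKM in CM and 1.84 RPKM in ESC (2.58). Of the let-7 targets and oncofetal RNA regulators 7 of 11 were lower and 2 higher, the latter near the 22.2% of all genes. Among the lower were the growth-promoting transcription factor genes Mycn (10.8 RPKM in CM and 125 RPKM in ESC) and Myc (4.23 RPKM in CM and 31.995 RPKM in ESC).

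Cell division genes were lower without exception in both lists. All 26 replication genes and all 24 mitosis genes were lower in CM, with medians of -2.89 and -2.61. Mcm5, a subunit of the replicative helicase, had 8.10 RPKM in CM and 251 RPKM in ESC (-4.79), and its partner Mcm6 had 8.08 RPKM in CM and 129 RPKM in ESC (-3.84). Cdc20, the activator that triggers anaphase, had 13.6 RPKM in CM and 147 RPKM in ESC (-3.34). Aurka, a spindle kinase, had 6.04 RPKM in CM and 53.9 RPKM in ESC. All 24 mitosis genes were at 1 RPKM or more in CM, so their transcripts were reduced rather than lost. Of 11 CDK inhibitors and cyclins 6 were higher and 3 lower, against 22.2% and 23.4% of all genes. Ccne1, the cyclin of entry into replication, had 3.22 RPKM in CM and 99.1 RPKM in ESC (-4.57), and Ccnd1 had 13.6 RPKM in CM and 85.2 RPKM in ESC. The inhibitor Cdkn1a had 158 RPKM in CM and 31.1 RPKM in ESC (2.30), while another inhibitor locus, Cdkn2a, had 1.00 RPKM in CM and 17.3 RPKM in ESC.

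The CCAAT box (CCAAT, or ATTGG on the other strand), bound by NF-Y and known from G2 and M phase promoters, was present in 16 of the 21 mitosis genes with an entry (76.2%). It occurs in 37.5% of all 27025 genes of the promoter table. The box was also present in 15 of the 22 replication genes with an entry (68.2%), so it was not particular to the mitosis list. Of all genes lower in CM by the 2-fold rule, 42.5% of those with an entry held it, near the 40.3% of all measured genes with an entry. Cdc20, Ccnb1 and Cdk1 are shown because their stretch holds 2 copies each, in capitals (5′ to 3′ on the gene's strand, GRCm38.p6): Cdc20 chr4:118437344-118437443, Ccnb1 chr13:100786499-100786598 and Cdk1 chr10:69352913-69353012, all on the minus strand.
Cdc20: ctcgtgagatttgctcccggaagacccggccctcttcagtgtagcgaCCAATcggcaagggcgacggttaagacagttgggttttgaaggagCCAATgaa
Ccnb1: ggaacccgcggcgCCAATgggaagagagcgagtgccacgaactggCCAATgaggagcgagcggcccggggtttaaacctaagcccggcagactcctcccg
Cdk1: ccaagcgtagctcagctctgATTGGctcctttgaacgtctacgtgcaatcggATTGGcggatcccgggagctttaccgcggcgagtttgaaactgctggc
Ccnb1 and Cdk1, cyclin B1 and the kinase it activates, were chosen for this motif. Ccnb1 had 1.87 RPKM in CM and 17.1 RPKM in ESC (-2.66), and Cdk1 had 9.05 RPKM in CM and 52.4 RPKM in ESC (-2.41).

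Genes of protein synthesis leaned to the ESC side, most of all at the step of ribosome assembly. All 26 ribosome biogenesis genes were lower, with a median of -2.64. Ncl, nucleolin, was the 10th most abundant transcript of ESC, with 126 RPKM in CM and 1180.0 RPKM in ESC (-3.21). Ddx21, a nucleolar RNA helicase, had 7.23 RPKM in CM and 170.3 RPKM in ESC (-4.38). Cytosolic tRNA synthetase genes were lower in 14 of 17, with a median of -1.71, led by the alanine enzyme Aars at 11.3 RPKM in CM and 88.9 RPKM in ESC. Products of that assembly line differed less. Cytosolic ribosomal protein genes were lower in 34 of 73 with a median of -0.97, and mitochondrial ones were lower in 19 of 72, near the 23.4% of all genes, with a median of -0.67, none of either being higher. Rpl8, the most abundant of the cytosolic genes, had 1510.2 RPKM in CM and 2429 RPKM in ESC, within 2-fold. Many ribosomal protein genes have pseudogene copies that share reads. Proteasome subunit genes were lower in 18 of 37, with a median of -0.98 and every gene of the list below 0.

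Serine, glycine and folate enzymes, which feed one-carbon units to nucleotides, were lower in 12 of 15 genes and higher in none, with a median of -2.38. Gldc, the glycine decarboxylase, had 0.208 RPKM in CM and 60.6 RPKM in ESC (-5.67). Psat1, an enzyme of serine synthesis, had 8.63 RPKM in CM and 223 RPKM in ESC (-4.54). Shmt1, the cytosolic serine hydroxymethyltransferase, had 3.63 RPKM in CM and 54.8 RPKM in ESC, while its mitochondrial relative Shmt2 lay within 2-fold at 72.3 RPKM in CM and 136 RPKM in ESC. The mitochondrial folate enzyme Mthfd1l was also within 2-fold, at 27.6 RPKM in CM and 35.5 RPKM in ESC. Cholesterol synthesis, another anabolic pathway, went the other way, with 6 of 15 genes higher and none lower. Cyp51, the sterol demethylase, had 35.7 RPKM in CM and 10.2 RPKM in ESC (1.71).

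The route to these end levels differed between groups. For each gene at least 2-fold apart, the first stage was noted at which it had passed the midpoint between its ESC and CM levels. Every stage is set against the same ESC value. Of the 3004 higher genes, 913 (30.4%) had done so in MES, 893 (29.7%) in CP and 1198 (39.9%) only in CM. Of the 3173 lower genes the numbers were 1175 (37.0%), 846 (26.7%) and 1152 (36.3%). Far-moving genes were distributed otherwise. Among the 93 genes at least 32-fold higher, 12 passed the midpoint in MES, 53 in CP and 28 in CM, and among the 58 at least 32-fold lower, 39 did in MES, 10 in CP and 9 in CM. An early loss and a later gain are thus described for the most distant genes.

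**Figure D4:**
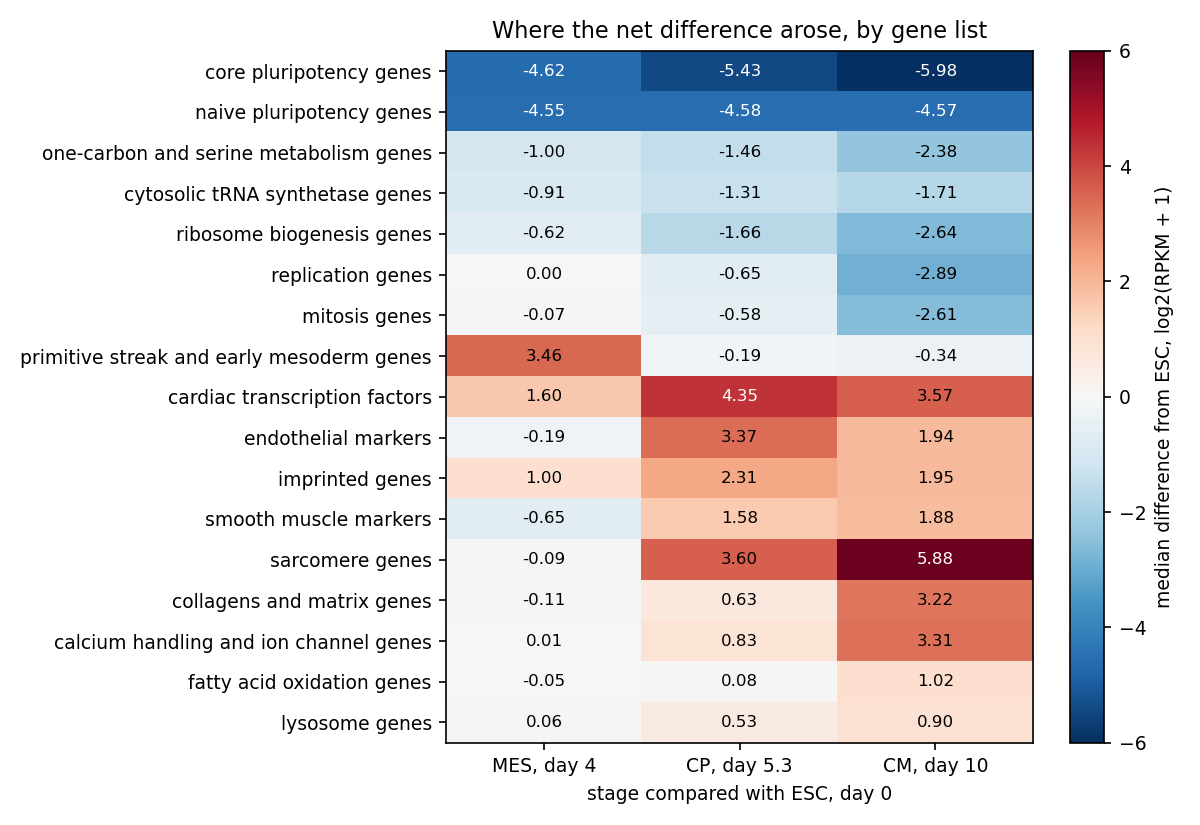
Median difference from ESC, on the log2(RPKM + 1) scale, of 17 gene lists in MES, CP and CM (columns, day of differentiation below), each set against the same ESC values; red is higher and blue lower than ESC. Naive pluripotency genes stand at -4.55 already in MES, and replication genes at 0.00 in MES and -2.89 in CM.

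Gene lists spread over this route from end to end. Naive pluripotency genes had a median of -4.55 in MES, -4.58 in CP and -4.57 in CM, so their loss was complete at day 4, and 15 of 16 passed the midpoint there. All 26 replication genes and all 24 mitosis genes passed it only between CP and CM, with medians of 0.00 and -0.07 in MES. Ribosome biogenesis lay between, with 21 of 26 genes past the midpoint in CP and medians of -0.62, -1.66 and -2.64. On the gaining side, 20 of the 32 sarcomere genes passed the midpoint in CP and 12 in CM. The cardiac transcription factors were earlier, 11 of 21 in MES and 9 in CP, and their median in CP (4.35) was above that in CM (3.57). All 5 higher hormone and secreted genes passed it in CM, as did 11 of the 16 higher matrix genes and 18 of the 20 higher respiratory chain genes. The endothelial markers likewise had a larger median in CP (3.37) than in CM (1.94), and 6 of the 11 higher ones were more than 2-fold above CM on the way. Few genes moved the wrong way first: 138 of the 3004 higher genes fell by the 2-fold rule below ESC and 62 of the 3173 lower genes exceeded it before the end.

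Genes back at their starting level were those within 0.5 of ESC in CM that had been at least 4-fold away in MES or CP. Within 0.5 of ESC lay 4088 genes (30.2%). Of all genes, 135 (0.997%) returned from a peak and 39 (0.288%) from a dip. Peaks were mostly switches from off to on and off again, since 85 of the 135 were under 1 RPKM in both CM and ESC and 5 were at 10 RPKM or more in both. On this scale any 2 levels near 0 count as back, and 508 of the 4088 genes within 0.5 were under 1 RPKM in both. Among the peaks, the largest departure was at MES in 79 and at CP in 56. Of the 22 primitive streak and early mesoderm genes 9 belong here. Mesp1, a factor of the first cardiac mesoderm, stood at 0.0620 RPKM in CM and 0.125 RPKM in ESC, and at 148 RPKM in MES. Cer1, a secreted Nodal antagonist, was listed at 0 in both CM and ESC and stood at 47.9 RPKM in MES. Lhx1 and Evx1, homeobox factors of the streak, reached 42.9 RPKM and 41.6 RPKM in MES. These 4 genes were below 0.5 RPKM at both ends.

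**Figure D5:**
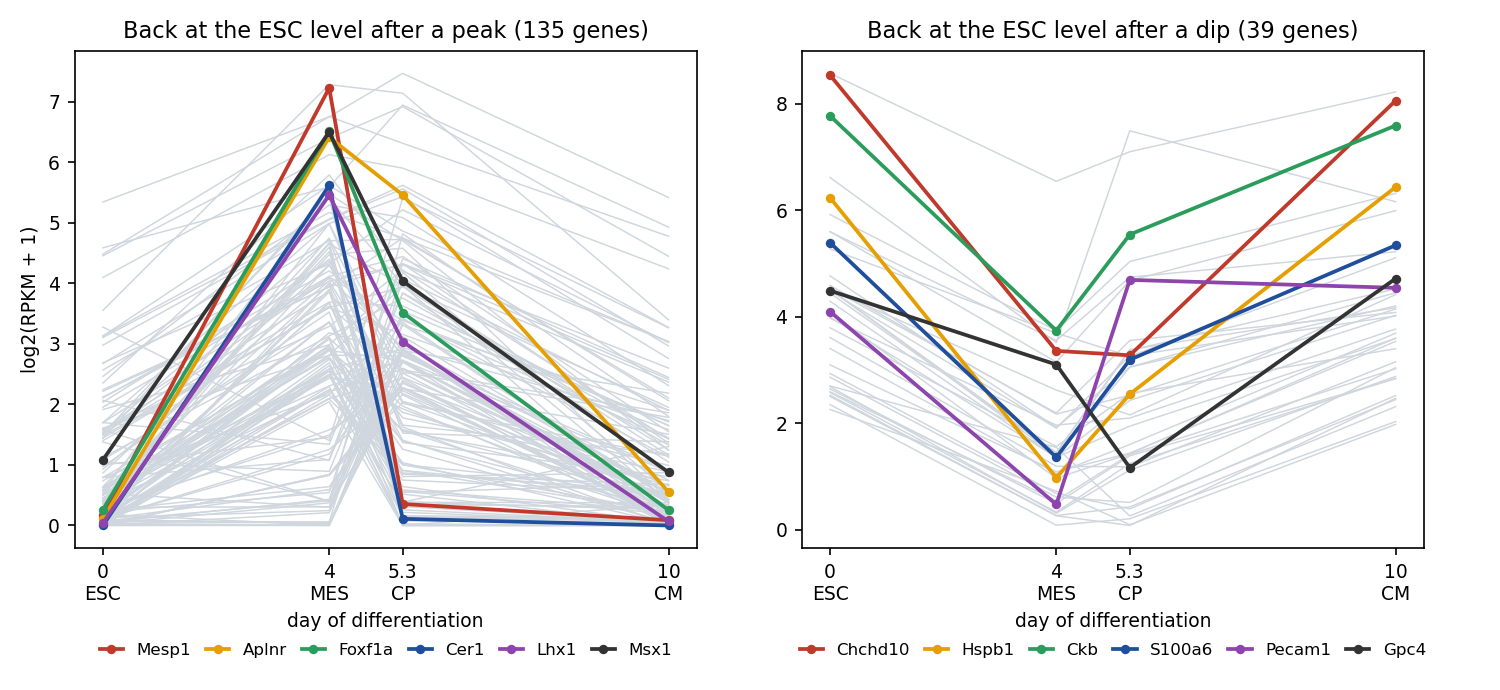
Levels over the 4 stages, as log2(RPKM + 1) against day of differentiation, of the 135 genes back at the ESC level after a peak (left) and the 39 back after a dip (right). Coloured lines are the 6 genes with the largest departure. Peaks mostly start near 0. Dips start from measurable levels, as the rule for a dip requires.

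Foxf1a, a forkhead factor of lateral mesoderm and not on that list, had 0.191 RPKM in CM and 0.200 RPKM in ESC with 89.9 RPKM in MES. Aplnr, the apelin receptor of migrating heart precursors, had 0.466 RPKM in CM and 0.0788 RPKM in ESC with 84.1 RPKM in MES and 42.9 RPKM in CP. Msx1, a homeobox target of BMP signalling, had 0.837 RPKM in CM and 1.12 RPKM in ESC with 89.2 RPKM in MES. All 3 were abundant at day 4 and near or below 1 RPKM at both ends. The 5 peaked genes at 10 RPKM or more at both ends were Marcks, Arid3b, Fzd7, Tpm4 and H2afy2, of which Marcks, Fzd7 and H2afy2 are named because the count is small. Tpm4, a non-muscle tropomyosin, had 41.7 RPKM in CM and 39.5 RPKM in ESC with 176 RPKM in CP. Not every mesoderm gene returned. Kdr, a VEGF receptor shared by mesoderm and endothelium, ended at 21.8 RPKM in CM and 0.365 RPKM in ESC, and Pdgfra at 10.3 RPKM in CM and 0.206 RPKM in ESC, both below their MES levels of 63.2 RPKM and 48.3 RPKM. Eomes and Wnt3 ended below their start, Eomes at 0.00544 RPKM in CM and 2.36 RPKM in ESC and Wnt3 at 0.0881 RPKM in CM and 4.49 RPKM in ESC.

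A dip needs a 4-fold fall on the log2(RPKM + 1) scale, which a gene near 0 in ESC cannot show. That none of the 39 was under 1 RPKM in both CM and ESC was therefore set by the rule. Of the 39, 24 were at 10 RPKM or more in both, and the lowest point was in MES in 29 and in CP in 10. Chchd10, a protein of mitochondrial cristae, had 266 RPKM in CM and 371 RPKM in ESC, and only 9.28 RPKM in MES and 8.70 RPKM in CP. Ckb, the brain-type creatine kinase, had 192 RPKM in CM and 218 RPKM in ESC, with 12.4 RPKM in MES and 45.8 RPKM in CP. Hspb1, a small heat shock protein, had 85.8 RPKM in CM and 74.5 RPKM in ESC, with 0.971 RPKM in MES and 4.85 RPKM in CP, though 58.1% of its words are shared with other transcripts. All 3 were abundant at both ends and scarce between. Tet2, an oxidase of methylcytosine, had 17.5 RPKM in CM and 21.9 RPKM in ESC with 1.62 RPKM in MES. Pecam1, an adhesion protein of endothelium that ESC also carry, had 22.4 RPKM in CM and 16.2 RPKM in ESC with 0.391 RPKM in MES. Col18a1, a basement membrane collagen, had 70.7 RPKM in CM and 97.3 RPKM in ESC, with 10.5 RPKM in MES and 179 RPKM in CP.

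Several muscle and matrix genes, and the inhibitor locus Cdkn2a, shared the drop between ESC and MES without meeting the rule for a return. Among all genes, 11.2% were lower in MES by the 2-fold rule. Acta2 had 1.96 RPKM in MES and 131 RPKM in ESC, and Tagln, the smooth muscle protein transgelin, had 2.26 RPKM in MES and 134 RPKM in ESC. Thbs1, the matrix protein thrombospondin 1, had 0.710 RPKM in MES and 26.1 RPKM in ESC. Acta1 had 0.525 RPKM in MES and 25.4 RPKM in ESC, and Cdkn2a had 0.855 RPKM in MES and 17.3 RPKM in ESC. Their ESC levels thus exceeded those of the day 4 culture by more than 10-fold, and the smooth muscle list had 4 of 10 genes lower in MES. The culture text does not say whether ESC were grown with other cells, and what set these ESC levels was not tested. For Acta2, Tagln, Thbs1 and Acta1 the CM minus ESC differences are smaller than they would be against MES. Cdkn2a stayed low, at 1.00 RPKM in CM. Tagln, with 408 RPKM in CM and 134 RPKM in ESC, was chosen after its values were seen.

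Genes that never moved numbered 1426 (10.5%), with a range under 0.5 over all 4 stages. Eef2, the translocation factor of translation, had 1659 RPKM in CM and 1188 RPKM in ESC, and Pkm2, the table's name for the muscle-type pyruvate kinase gene, had 654 RPKM in CM and 656 RPKM in ESC. Genes often used as constant references were not uniform. Of 13 such genes 3 were higher in CM, 5 were lower and 5 lay within 2-fold. B2m, the light chain of class I histocompatibility molecules, had 50.3 RPKM in CM and 9.74 RPKM in ESC (2.26), and Polr2a, the large subunit of RNA polymerase II, had 22.9 RPKM in CM and 65.2 RPKM in ESC (-1.47). Sdha, a subunit of succinate dehydrogenase, had 129 RPKM in CM and 88.4 RPKM in ESC (0.54). Among genes of at least 10 RPKM in every stage the median difference was -0.21 in the values as deposited. Scaling by the median ratio of such genes removes this shift by construction.

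Since RPKM is scaled to depth, a few very abundant transcripts can lower the values of all others. The 10 most abundant genes held 8.23% of the summed RPKM in CM and 7.36% in ESC, and the 100 most abundant held 24.9% in CM and 21.2% in ESC. RPKM is per length, so these are not shares of reads. The top 2 entries of ESC carry microRNA names, Mir715 (781 RPKM in CM and 3773 RPKM in ESC) and mmu-mir-689-2.1 (838 RPKM in CM and 2444 RPKM in ESC). All words (100%) of mmu-mir-689-2.1 are shared with other transcripts, and Mir715 has no such value. Of other entries in the ESC top 10, Gm9843 shares 100%, Rps26-ps1 91.6% and mt-Co1 62.9%. Their levels, and the shares of the 10 most abundant genes, are therefore uncertain. Sarcomere genes alone held 6.51% in CM and 0.0523% in ESC, and the core pluripotency genes held 0.0415% in CM and 1.38% in ESC. The mitochondrially encoded genes held similar shares, 2.15% in CM and 2.17% in ESC. Bsg, basigin, a membrane partner of lactate transporters, was among the 10 most abundant genes of CM, with 1522 RPKM in CM and 189 RPKM in ESC (3.00).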

How the data were processed

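RPKM values were deposited by the authors as 1 column per stage, per the file headers. The aligner was Novoalign 2.07.00 and the genome build mm9, per the submitters' processing notes. Which counter, annotation and gene filter were used, and whether a column combines both libraries, is not given in the sources used here. Every gene reaches 1.00017 RPKM or more in some stage, so genes that never do were left out.

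Differences were taken on log2(RPKM + 1) with Python 3.11.15, numpy 2.4.6 and pandas 2.3.3, with no test, since no replicate columns exist. Differences were called from 1 (2-fold); a return needs CM within 0.5 of ESC and MES or CP at least 2 (4-fold) away on this scale. The classes were tested on simulated data. Relative depth came from low values: 75.7% of 136 low genes lay on whole steps in CM, against at most 15.4% at the wrong depths tried. Depth in reads was set with exon lengths from GENCODE M21 (GRCm38), where the estimates of 551 of 2160 genes (25.5%) agreed within 0.1%. Promoter coordinates are RefSeq's on GRCm38.p6; the table holds none.

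The 43 lists (36 of named genes, with 530 of 583 genes in the table and 4 matched by an older name, and 7 by name pattern), the pairs and the naming rule were chosen with earlier results of these data known. Named genes are the 12 largest differences each way, up to 4 called and 2 other members per list, both members of each pair, the 10 largest returns each way, the 10 most abundant genes per stage and 7 stage markers; others are named as chosen later. Shared sequence is the part of the longest M21 transcript, cut into 32-base words, that other genes hold on either strand. It was computed for 292 of 294 named genes and exceeds 50% in 22. Reads of overlapping genes cannot be told apart.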

Additional observations from a re-analysis of the deposited data

How the results depend on the processing

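Other settings changed counts more than directions. Of 258 recomputed list medians 223 stayed within 0.5 of the value reported, 35 moved and none reversed by a called amount, while the medians of Zfp-named genes, endoderm markers and mitochondrially encoded genes, all near 0, changed sign with the scaling. Of 97 other recomputed values 80 stayed within 1.5 times. A pseudocount of 0.1 gave 90 dips and 1382 higher genes past the midpoint in MES, and a summed RPKM of 1000000 per stage gave 68 dips. Of the 135 peaks, 70 were still peaks at a pseudocount of 0.1 and 87 at the summed RPKM of 1000000. A minimum of 4-fold left 1182 higher genes (8.73%) and 1050 lower genes (7.75%). Their midpoints fell in MES, CP and CM for 287, 405 and 490 of the higher genes and 444, 256 and 350 of the lower ones, and 6 lists had a median of at least 2. With CM allowed within 1 of ESC there were 222 peaks and 75 dips, with a departure of 2-fold 554 peaks and 220 dips, and with a range under 1 there were 4984 steady genes. Scaling by the median ratio of genes at 10 RPKM or more (factor 0.857 for CM) moved the median of all genes to 0.13, against -0.03 as deposited, and gave 3572 higher and 2776 lower genes, 56.3% higher among those called against 48.6%. No paired analysis was possible because the table carries 1 column per stage and no replicate numbers, and leaving out a replicate could not be done for the same reason. Genes with few reads are limited by counting error, and 156 genes were listed at 0 in CM and 89 in ESC.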

Other observations

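Some genes outside the groups above also ended far from ESC. Of the 7 neural markers measured, 3 were lower in CM, 1 was higher and 3 lay within 2-fold. Stmn2, a tubulin-binding protein of growing axons, had 0.940 RPKM in CM and 101 RPKM in ESC (-5.71), and Tubb3, neuronal beta-tubulin, had 1.067 RPKM in CM and 97.2 RPKM in ESC (-5.57). Ncam1, a neural adhesion protein, went the other way, with 22.9 RPKM in CM and 2.55 RPKM in ESC (2.75). Epcam, an epithelial adhesion protein that ESC share with endoderm, had 0.481 RPKM in CM and 93.0 RPKM in ESC (-5.99), while the keratin genes Krt8 (61.1 RPKM in CM and 66.9 RPKM in ESC) and Krt18 (111 RPKM in CM and 132 RPKM in ESC) lay within 2-fold. Of 311 zinc finger genes named Zfp, 35 were higher and 46 lower in CM, below the 22.2% and 23.4% of all genes. The median was -0.10, with a sign that changes with the scaling. Zfp9 (17.4 RPKM in CM and 0.106 RPKM in ESC) was at the upper end and Zfp42 at the lower end of that family.

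Of 8 antigen presentation genes 2 were higher and 2 lower, near the 22.2% and 23.4% of all genes. H2-K1, a class I heavy chain, had 106 RPKM in CM and 15.6 RPKM in ESC (2.69), and H2-D1, another class I heavy chain, had 3.23 RPKM in CM and 9.53 RPKM in ESC (-1.32). H2-Ab1, a class II beta chain chosen after its values were seen, had 115 RPKM in CM and 0.428 RPKM in ESC (6.34). Cd74, the invariant chain that accompanies class II molecules and also chosen afterwards, had 0.0560 RPKM in CM and 2.10 RPKM in ESC. The 2 class II genes thus differed in opposite directions. Among imprinted genes Phlda2, a growth-restraining gene of the placenta and chosen afterwards, had 1.87 RPKM in CM and 72.1 RPKM in ESC (-4.67) after 494 RPKM in MES.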
